A study of Mus musculus with 3 samples.

Results

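The results concern 4 genes, Runx1, Runx2, Runx3 and Cbfb, of 21670 protein-coding genes on chromosomes 1 to 19 and X, as seen in the accessible chromatin of single hematopoietic stem cells (HSCs). They encode the RUNX transcription factors of the mouse and the partner subunit that all of them bind, and each locus was taken as the annotated gene body with 200 kb either side. Of 3757 barcodes called as cells, the 3108 (82.7%) with more than 3000 ATAC fragments in peaks were used. The cells were long-term HSCs of wild-type female mice aged 8 weeks, of the strain C57BL/6 in the deposited record and C57BL/6J in the study's methods, sorted from bone marrow as LSK CD150+CD48−CD34− cells. They were profiled by DOGMA-seq, in which RNA, accessible chromatin and antibody tags are read from the same cells. There was 1 preparation, which gave 3 libraries, and the values come from its ATAC library. The number of mice was not given in the sources used here. No condition was compared and cells of 1 library are not replicates, so values are shares of cells with exact 95% binomial (Clopper-Pearson) intervals, or ratios of 2 such counts with an interval from their binomial split, which cover counting error only. The split treats the 2 counts as independent, although both come from the same cells and some cells enter both. Intervals of the ratios are therefore approximate.

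RUNX proteins bind DNA through the Runt domain as a heterodimer with CBFβ, the product of Cbfb, which does not touch DNA itself but raises the affinity of its partner. Runx1 is needed for the emergence of HSCs in the embryo and acts in platelet, myeloid and lymphoid differentiation, Runx2 is the master regulator of osteoblasts, and Runx3 is best known in cytotoxic T cells and sensory neurons. Each RUNX gene is transcribed from a distal promoter (P1) and a proximal promoter (P2), which give proteins with different N termini.

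The kept cells held 37137164 unique fragments on chromosomes 1 to 19 and X. By the deposited counts per barcode, which were not limited here to these chromosomes, the median was 11457 fragments per cell (range 3977 to 194399). A cell was counted at a promoter when at least 1 fragment end, a cut site of the transposase, lay within 500 bp of the start, and a promoter was called open at 5% of cells. By this rule 53.6% of all protein-coding genes had an open promoter, and the median promoter had a cut site in 6.55% of cells. Promoters of 7 of 8 HSC markers were open, led by Hlf (40.0% of cells), Mycn (33.1%) and Kit (26.8%), whereas Slamf1, which encodes the sorted antigen CD150, stood at 3.31%. None of the 4 T cell markers, the 4 neutrophil markers or the 5 stromal and osteoblast markers was open, and their highest values were 1.16% at Lck, 1.25% at Mpo and 4.95% at Cxcl12. Of the B cell markers 1 of 4 was open (Ebf1, 6.66%), and so were 1 of 3 of the macrophage markers (Cd68, 13.9%) and 1 of 3 of the endothelial markers (Kdr, 9.52%). All 3 megakaryocyte markers were open, between 19.4% at Gp1ba and 24.8% at Itga2b. The part of other cells in the values of the 4 genes was not tested. At the promoter level 7 of 8 HSC markers thus passed 5%, beside 53.6% of all genes, with a median of 12.7% of cells over the 8. Procr, which passed at 6.02%, lay below the median of all genes. The 3 megakaryocyte markers had a higher median of 20.8%, so the HSC markers were not the most open list. Markers of the other blood lineages named above were open in part or not at all.

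Runx1, on the minus strand at chr16:92601466-92826149, had a cut site within 500 bp of its P1 start in 1088 of 3108 cells (35.0%, 33.3 to 36.7). P2, 129 kb downstream, had one in 458 cells (14.7%, 13.5 to 16.0). P1 was therefore open in 2.38 times as many cells as P2 (2.13 to 2.66). Counted over the whole open elements of P1 and P2, defined below and chosen after the values were seen, the ratio was 1.25, outside that interval. Both were cut in 167 cells, P1 alone in 921 (29.6%), P2 alone in 291 (9.36%) and neither in 1729 (55.6%). Among all protein-coding genes P1 lay at the 84.9th percentile of promoter shares and P2 at the 64.2nd. The other annotated starts of Runx1, 130 kb and 131 kb downstream of P1, were cut in 1.25% and 1.45% of cells.

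Runx2, on the minus strand at chr17:44495987-44814797, showed the opposite order. Its P1 was cut in 109 cells (3.51%, 2.89 to 4.22), below the 5% at which a promoter was called open, and its P2, 79.1 kb downstream, in 560 cells (18.0%, 16.7 to 19.4). P2 was open in 5.14 times as many cells as P1 (4.18 to 6.37), a P1 to P2 ratio of 0.195 (0.157 to 0.239), and both were cut in 28 cells. With windows of 250 bp either side the P1 to P2 ratio was 0.316, outside that interval and on the same side of 1. P1 stood at the 42.7th percentile of all promoters and P2 at the 68.5th. Of the other starts near P2, that 78.1 kb from P1 was cut in 17.9% of cells and that 80.1 kb from P1 in 10.3%. All of these starts lay in 1 open element of 2500 bp, which also holds a start of the noncoding gene Runx2os1.

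Runx3, on the plus strand at chr4:135120652-135177990, again had more cells at P1, with 1156 (37.2%, 35.5 to 38.9) against 566 (18.2%, 16.9 to 19.6) at P2, 31.8 kb downstream. The P1 to P2 ratio was 2.04 (1.85 to 2.26), or 3.47 with only fragments shorter than 150 bp. Over whole open elements, a setting chosen after the values were seen, the ratio was 0.871, so the order turned. These elements differ in length, with 1000 bp at P1 and 4500 bp at P2. Both starts were cut in 247 cells, P1 alone in 909 (29.2%) and P2 alone in 319 (10.3%). P1 stood at the 86.6th percentile and P2 at the 68.7th. The P1 element of Runx3 also holds a start of Gm16225, a noncoding gene on the other strand, and fragments cannot be assigned to either gene.

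Cbfb, on the plus strand at chr8:105170674-105217989, has 1 group of coding starts in the annotation. Its promoter was cut in 1170 cells (37.6%, 35.9 to 39.4), at the 86.9th percentile, and 2831 genes had a higher share. Its element also holds a start of the noncoding gene Gm22063. The shares of Cbfb and Runx3 P1 lay within each other's intervals, and that of Runx1 P1 was just below that of Cbfb, whose lower bound of 35.9% it did not reach. In all, 6 of the 7 promoters, that is each P1 and P2 and the Cbfb start, were open by the 5% rule, beside 53.6% of all genes. Runx2 P1 was the exception over all kept cells, but it passed 5% in the deepest of 4 groups of cells by depth (6.05%, 4.48 to 7.96).

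At each promoter the share was higher in the deepest than in the shallowest cells. Across 4 equal groups of cells by depth, with a median of 7455, 10489, 12373 and 15520 fragments, Runx1 P1 was cut in 23.3%, 35.5%, 38.1% and 43.1% of cells. Runx2 P1 went from 2.06% in the shallowest to 6.05% in the deepest group, and Cbfb from 28.1% to 47.7%. The order of the promoters within each gene was the same in the 4 groups, with P1 to P2 ratios of 1.99 to 3.14 at Runx1, 0.167 to 0.232 at Runx2 and 1.86 to 2.22 at Runx3. The shares thus moved with depth, whereas the ratios kept their side of 1.

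**Figure D1:**
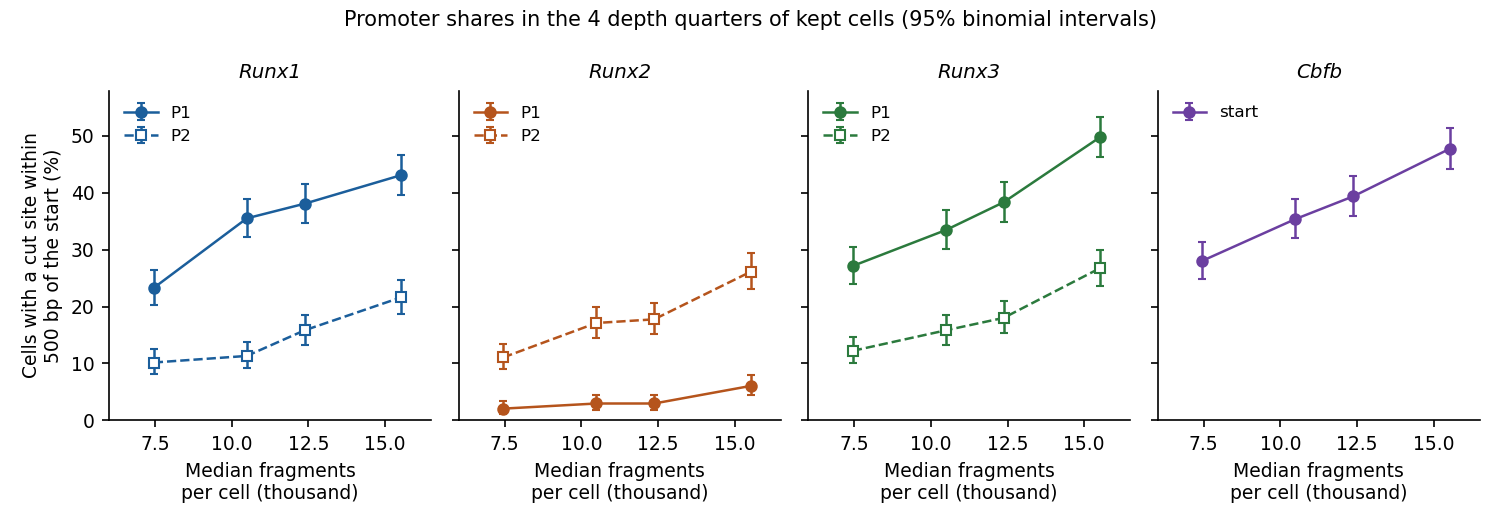
Share of cells (y axis, %) with a cut site within 500 bp of P1 (filled circles) and P2 (open squares) in 4 equal groups of kept cells by depth, placed at their median number of fragments (x axis, in units of 1000). Bars are 95% binomial intervals; P1 lies above P2 at Runx1 and Runx3 and below it at Runx2 in each of the 4 groups.

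The promoters also differed in how far they spread. Of the 9 bins of 500 bp that reach within 2 kb of the start, 3 were open at Runx1 P1, 2 at Runx3 P1 and 4 at Cbfb, with most cells in the bin at or next to the start (32.3%, 31.1% and 33.8%). At P2, 5 bins were open at Runx1, 5 at Runx2 and 8 at Runx3, and no bin reached the height of Runx1 P1 or Runx3 P1. The strongest bin of the Runx1 P2 element (15.0% of cells) was centered 1.42 kb upstream of the start, and that of Runx3 P2 (14.2%) 1.25 kb downstream of it. Where the whole open element was counted instead of the window, a setting chosen after the values were seen, Runx1 P1 had 36.4% of cells and P2 29.2%, and the order at Runx3 turned, with 37.8% at P1 and 43.4% at P2. The P1 element of Runx3 spans 1000 bp and the P2 element 4500 bp, so the turned order compares unequal lengths. In windows of equal length P1 of Runx3 kept its excess, with a ratio of 1.60 at 1000 bp either side.

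**Figure D2:**
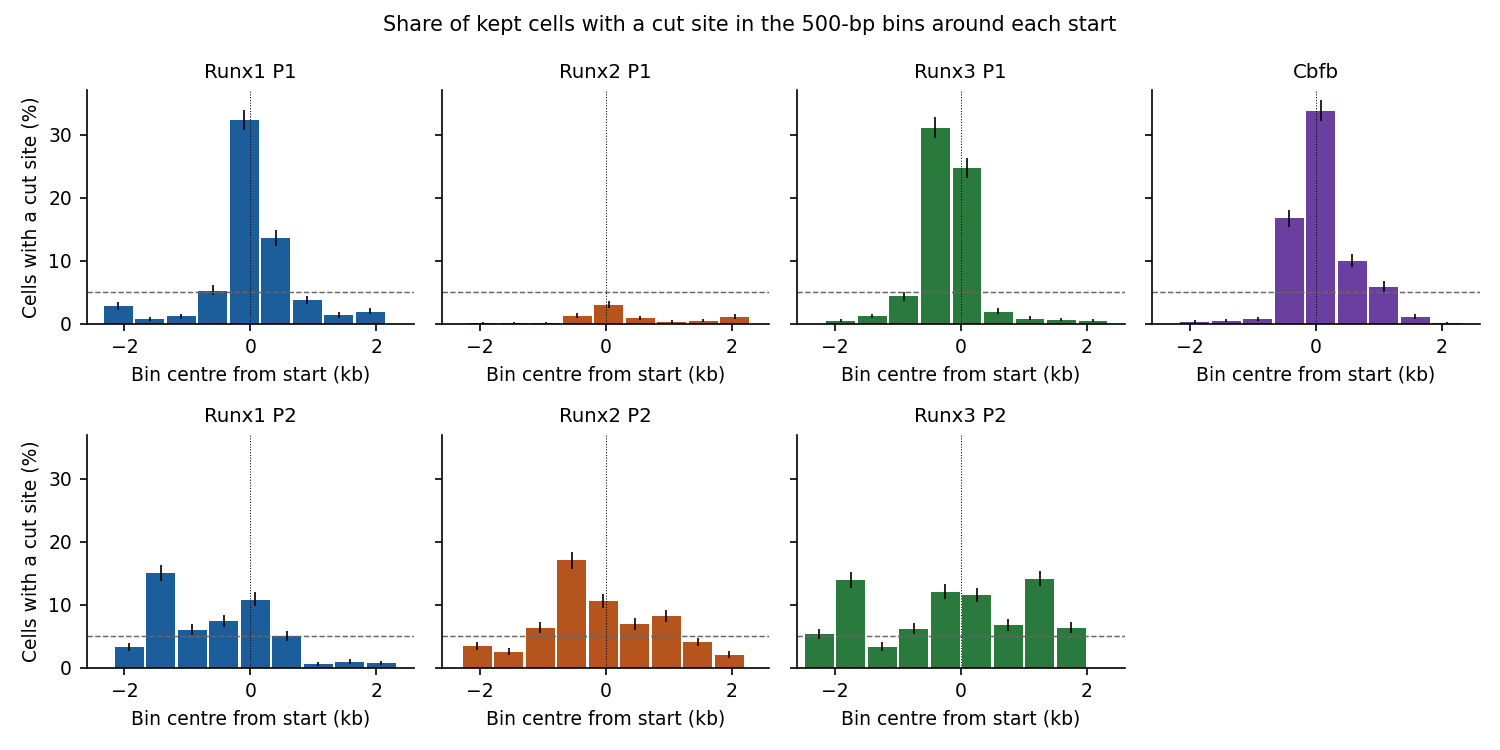
Share of cells (y axis, %) with a cut site in each 500-bp bin around the P1 and P2 starts and the Cbfb start; the x axis gives the bin centre from the start in kb, positive in the direction of transcription. Bars carry 95% binomial intervals and the dashed line is the 5% at which a bin is called open: P1 of Runx1 and Runx3 and the Cbfb start have the highest bins, with 2 to 4 open bins each, the P2 promoters are lower with 5 to 8, and no bin at Runx2 P1 reaches the line.

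Fragment length separated the promoters as well. Fragments too short to span a nucleosome come mostly from stretches free of one. Of all kept-cell fragments 46.1% were shorter than 150 bp. The share was 73.1% at Runx3 P1 (70.9 to 75.1), 65.1% at Cbfb (62.8 to 67.3) and 57.2% at Runx1 P1 (54.6 to 59.7). It was 48.2% at Runx1 P2 (44.0 to 52.4), whose interval includes the overall share, 41.4% at Runx3 P2 (37.7 to 45.0) and 28.6% at Runx2 P2 (25.3 to 32.1). At Runx2 P1 it was 30.3%, from only 122 fragments (22.3 to 39.3). At Runx1 and Runx3 the promoter with more cells thus also had more short fragments within 500 bp of the start. In the strongest bins of their elements the shares were closer at Runx1, with 59.5% at P1 and 56.7% at P2, but not at Runx3 (71.1% and 29.3%). At Runx2 both P1 and P2 lay below the overall share. Of the other Runx2 starts in the element of P2, that 78.1 kb from P1 had 44.7% short fragments and that 80.1 kb from P1 28.8%, so the share differed within the element.

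The sequences of the promoters followed the P1 and P2 split. RefSeq windows of 300 bases (GRCm38), from 250 before to 50 after the start, matched 6 promoters of the 4 genes, P1 and P2 of Runx1 and Runx3, P1 of Runx2 and the Cbfb start. The observed over expected CpG ratio was 0.137 at Runx1 P1, 0.143 at Runx2 P1 and 0.264 at Runx3 P1, against 1.01 at both Runx1 P2 and Runx3 P2 and 0.987 at Cbfb, with a median of 0.384 over 32851 RefSeq promoters. GC content was 45.0%, 45.3% and 63.7% at the P1 promoters and 69.0%, 77.3% and 69.7% at Runx1 P2, Runx3 P2 and Cbfb, with a median of 52.7%. The P1 promoters are thus poor in CpG whether open over all kept cells, as at Runx1 and Runx3, or not, as at Runx2.

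All 3 P1 windows hold the RUNX letters TGTGGT, read on either strand as TGTGGT or ACCACA, 2 times at Runx1 and Runx3 and 3 times at Runx2, and neither P2 window nor Cbfb holds any. Of all RefSeq promoters 16.8% hold these letters at least once. In each P1 window they occur as a pair on the same strand with starts 8 bases apart, an arrangement looked for after the sequences were seen and present in 7 of the 32851 promoters (0.0213%). These 7 include the 3 P1 windows themselves and that of Gm16225, which overlaps Runx3 P1, and the others are those of Gm12236, Gm15462 and Olfr24. The pair lies in a run of 18 bases that Runx1, Runx2 and Runx3 share exactly, and Runx1 and Runx2 share 22. In the RefSeq promoters the run occurs in 1 more window, that of Gm16225, which reads the same stretch of Runx3 P1 from the other strand. The run starts 101 bases downstream of the GENCODE start at Runx1, in the 5′ UTR of the first exon, and 191 bases downstream at Runx2, in a first exon that is 5′ UTR in 1 transcript and coding in others. At Runx3 it starts 143 bases upstream of the GENCODE start. It is shown here with 6 bases either side (GRCm38, 5′ to 3′ on the strand of the gene), at chr16:92826025-92826054 (minus strand), chr17:44814583-44814612 (minus strand) and chr4:135120503-135120532 (plus strand), with the RUNX letters in capitals.
Runx1 P1 shared letters: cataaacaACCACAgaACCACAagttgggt
Runx2 P1 shared letters: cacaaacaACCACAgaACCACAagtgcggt
Runx3 P1 shared letters: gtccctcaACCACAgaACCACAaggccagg
The bin of 500 bp with this run was cut in 32.3% of cells at Runx1, 24.7% at Runx3 and 2.99% at Runx2, so the same letters stood in open and in closed bins. Over the genome 17 of 46098 open bins (0.0369%) hold such a pair, among them those of Runx1 P1 and Runx3 P1. A match of letters does not show that a factor is bound.

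The stretches upstream of the annotated start are given for the P1 promoters that were open, with capitals for letters read on either strand, TGTGGT for RUNX, AGATAA and also TGATAA for factors of the GATA family and AGGAAG for ETS factors. That of Runx1 (chr16:92826150-92826324, minus strand) holds an ETS match, and that of Runx3 (chr4:135120395-135120651, plus strand) holds the RUNX pair and overlaps the first exon of Gm16225 on the other strand. Of all RefSeq promoters 18.6% hold the GATA letters and 35.4% the ETS letters.
Runx1 P1 upstream: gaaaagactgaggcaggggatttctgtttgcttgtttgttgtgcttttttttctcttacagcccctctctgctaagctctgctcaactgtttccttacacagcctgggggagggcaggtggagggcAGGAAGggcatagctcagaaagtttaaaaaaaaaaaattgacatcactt
Runx3 P1 upstream: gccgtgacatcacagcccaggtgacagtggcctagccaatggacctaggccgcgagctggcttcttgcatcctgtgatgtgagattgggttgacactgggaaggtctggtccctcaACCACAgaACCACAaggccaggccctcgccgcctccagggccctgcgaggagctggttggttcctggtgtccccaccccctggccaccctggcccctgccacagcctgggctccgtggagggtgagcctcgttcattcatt

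Beyond the promoters, each locus was divided into bins of 500 bp, and a bin was called open when at least 5% of cells (156 cells) had a cut site in it. By this rule 0.875% of the 5267565 bins of the genome were open. Runx3 had 52 of 915 bins open (5.68%), Cbfb 29 of 895 (3.24%), Runx1 24 of 1251 (1.92%) and Runx2 15 of 1439 (1.04%). The window of the median gene had 1.58%, and Runx3 stood at the 91.1st percentile of gene windows, Cbfb at the 75.0th, Runx1 at the 57.1st and Runx2 at the 37.4th. Open bins no more than 1 bin apart were joined, which gave 23 elements at Runx3, 16 at Cbfb, 11 at Runx1 and 7 at Runx2. These counts depend on the settings. In the same order they were 11, 8, 5 and 4 with cells thinned to 5000 fragments, and 40, 22, 23 and 13 at a threshold of 2.5%.

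The 57 elements were of different kinds at the 4 loci. Runx1 had 2 elements at its own promoters, 5 in its introns, 2 between genes and 2 at a promoter of another gene. Runx2 had 1 at its own promoters, 3 in introns, 2 between genes and 1 at the promoter of another gene. At Runx3, 15 of the 23 elements lay between genes, and 1 lay in an intron. Cbfb had no open element in an intron, and 10 of its 16 elements were promoters of other genes. No element was exonic. Over the 4 loci the median share of cells was 24.1% in the 6 own promoter elements, 9.52% in the 9 intronic and 7.42% in the 20 intergenic elements, each read in its strongest bin.

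**Figure D3:**
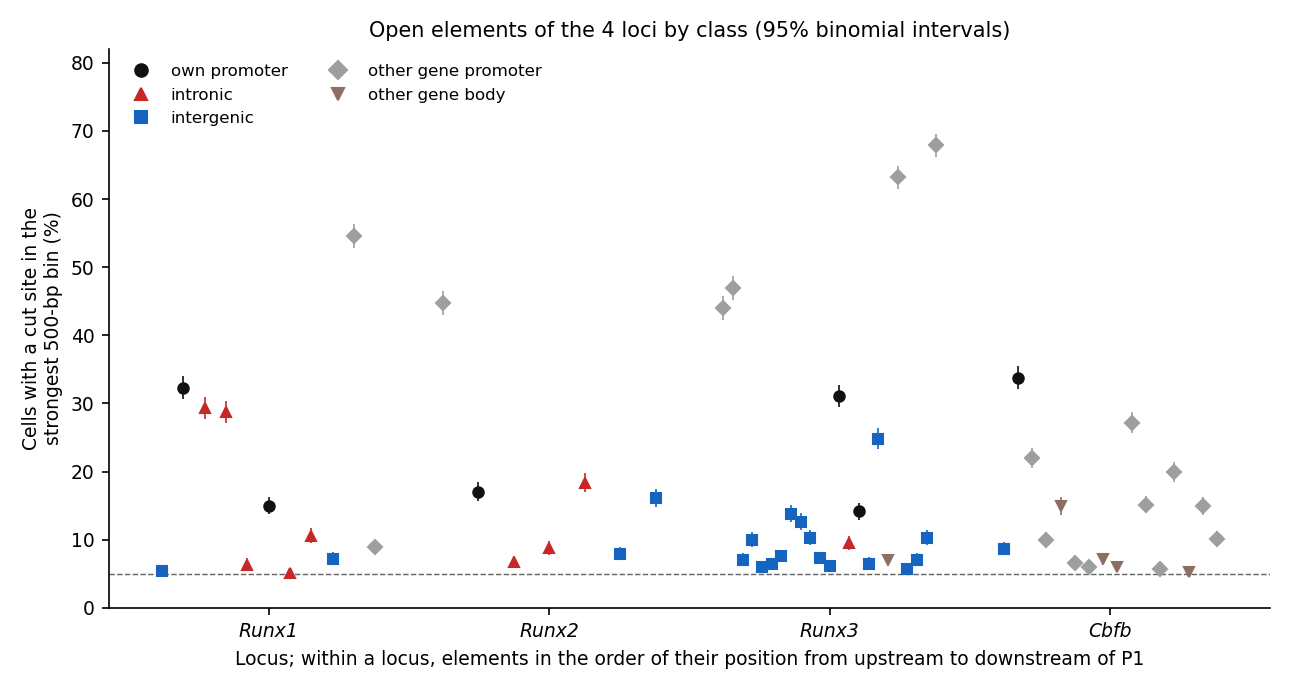
Share of cells (y axis, %) with a cut site in the strongest 500-bp bin of each of the 57 open elements, by locus and class; within a locus the elements run from upstream to downstream of P1. Bars are 95% binomial intervals and the dashed line marks 5%: among the elements outside promoters, those at 28.7% and 29.4% in Runx1 and at 24.8% near Runx3 are the highest.

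In Runx1 the introns held elements nearly as open as P1. The 5 strongest elements of the locus were a promoter of Rcan1, a calcineurin inhibitor, 360 kb downstream of P1 (54.5% of cells), P1 itself (32.3% in its strongest bin), intronic elements 3.90 kb (29.4%, from 913 cells) and 24.4 kb (28.7%, from 892 cells) downstream of P1, and P2 (15.0%). The element at 24.4 kb, chr16:92800501-92802500, lies in the long intron between the first exons of P1 transcripts and P2, where an enhancer active in blood stem cells is known. It was as open as that at 3.90 kb, chr16:92821501-92823000, within their intervals of 27.1 to 30.3% and 27.8 to 31.0%. Fragments shorter than 150 bp made up 63.4% and 62.9% of those in their strongest bins, against 59.5% in the strongest bin of P1. The other intronic elements of Runx1 were weaker, at 38.9 kb (6.34%), 172 kb (5.05%) and 205 kb (10.6%), and those between genes, 260 kb downstream and 58.1 kb upstream, had 7.24% and 5.37%.

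The 300 bases with most cut sites are shown for both strong intronic elements of Runx1, on the minus strand in the direction of the gene, with RUNX, GATA and ETS letters in capitals. The stretch at 24.4 kb (chr16:92801617-92801916, intron) held 62.4% of the 2953 cut sites of its element and was cut in 27.6% of cells. It has 1 GATA and 1 ETS match and no RUNX letters. The stretch at 3.90 kb (chr16:92822219-92822518, intron) held 52.2% of 3111 cut sites and was cut in 26.6% of cells. It has 1 GATA match and the RUNX letters on both strands, facing each other 2 bases apart. This facing arrangement was noticed in the sequence and was not counted in other bins. Of all open bins of 500 bp, 26.7% hold the RUNX letters, 23.0% the GATA letters and 50.8% the ETS letters.
Runx1 24.4 kb: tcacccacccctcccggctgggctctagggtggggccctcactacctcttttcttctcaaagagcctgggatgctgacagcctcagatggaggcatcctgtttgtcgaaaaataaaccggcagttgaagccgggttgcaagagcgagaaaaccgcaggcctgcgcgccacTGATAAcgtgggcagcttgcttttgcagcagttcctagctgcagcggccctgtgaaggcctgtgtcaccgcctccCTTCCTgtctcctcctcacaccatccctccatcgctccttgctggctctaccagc
Runx1 3.9 kb: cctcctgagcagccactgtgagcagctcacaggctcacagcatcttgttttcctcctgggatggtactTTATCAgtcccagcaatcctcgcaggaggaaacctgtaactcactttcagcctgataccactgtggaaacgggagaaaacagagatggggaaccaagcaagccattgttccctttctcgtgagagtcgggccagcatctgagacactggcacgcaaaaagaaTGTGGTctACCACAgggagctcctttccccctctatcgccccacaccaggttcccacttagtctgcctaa

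In Runx2 the strongest element belonged to another gene. Supt3, which encodes a subunit of the SAGA transcription complex, starts inside an intron of Runx2, 37.6 kb downstream of P1, and its promoter element was cut in 44.8% of cells. Next came an intronic element 201 kb downstream of P1 (18.3%, 17.0 to 19.7), the element of P2 (17.1%), an intergenic element 382 kb downstream of P1, beyond the end of the gene (16.1%), and an intronic element at 160 kb (8.78%). The remaining ones, 359 kb and 105 kb downstream, had 7.92% and 6.66%. By strongest bin the intronic element at 201 kb was thus about as open as P2, but over whole elements it had 20.1% of cells and the wider P2 element 31.1%. Its 300 bases with most cut sites (chr17:44614018-44614317, minus strand, intron), which held 67.5% of the cut sites of the element, have 1 RUNX and 1 ETS match, in capitals.
Runx2 201 kb: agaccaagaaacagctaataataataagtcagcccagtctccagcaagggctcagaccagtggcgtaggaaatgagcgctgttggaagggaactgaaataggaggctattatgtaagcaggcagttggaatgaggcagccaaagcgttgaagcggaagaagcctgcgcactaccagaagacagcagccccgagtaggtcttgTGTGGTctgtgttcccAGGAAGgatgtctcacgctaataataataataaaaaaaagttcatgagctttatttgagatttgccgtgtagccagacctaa

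At Runx3 the 4 strongest elements were promoters of its neighbors, Srrm1 (67.9% of cells), Clic4 (63.2%), Syf2 (46.9%) and Rsrp1 (44.0%). Srrm1 and Syf2 encode splicing factors, and Clic4 a protein of the chloride intracellular channel family. P1 was the fifth, with 31.1% in its strongest bin. The strongest element outside promoters lay 85.6 kb downstream of P1, beyond the end of the gene, and was cut in 770 cells (24.8%, 23.3 to 26.3), more than P2 with 14.2% in its strongest bin. Over whole elements the order turned, with 28.1% of cells at 85.6 kb and 43.4% at the P2 element of 4500 bp. Upstream of P1 an array of 10 intergenic elements ran from 22.4 to 174 kb away, with 5.95 to 13.8% of cells, the strongest at 53.4 kb (13.8%) and 50.4 kb (12.6%). The only intronic element, 8.10 kb downstream of P1, had 9.52%. Of the 300 bases with most cut sites at 85.6 kb (chr4:135206287-135206586, plus strand, intergenic), the ETS letters take 3 places, 2 of them overlapping, and the GATA letters 1, with no RUNX letters.
Runx3 85.6 kb: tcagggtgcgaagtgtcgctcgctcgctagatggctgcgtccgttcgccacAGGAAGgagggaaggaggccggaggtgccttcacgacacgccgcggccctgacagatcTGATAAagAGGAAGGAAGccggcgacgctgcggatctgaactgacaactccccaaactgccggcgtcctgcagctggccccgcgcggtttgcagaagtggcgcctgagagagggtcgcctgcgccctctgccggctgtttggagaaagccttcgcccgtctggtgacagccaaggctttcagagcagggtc

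At Cbfb its own promoter had the strongest bin of the locus (33.8% of cells). Over whole elements the order turned, with 41.5% of cells at the Cbfb promoter and 45.1% at the element of 4931428F04Rik. By strongest bin it was followed by promoters of 4931428F04Rik (27.2%) and D230025D16Rik (21.9%), a shared promoter region of Lrrc29 and Tmem208 (19.9%) and that of E2f4 (15.2%), a cell cycle regulator. Inside the gene 3 of 95 bins were open, all at the promoter. The single intergenic element lay 49.4 kb upstream and had 8.66% of cells. The window holds 21 other protein-coding genes, of which 14 had an open promoter, beside 53.6% of all protein-coding genes. At the other loci, with few neighbors, it was 4 of 4 at Runx3, 1 of 1 at Runx2 and 0 of 2 at Runx1. The count takes 1 start per gene, the one most coding transcripts share or else the one farthest upstream, which for Rcan1 was cut in 0.193% of cells although another start of this gene was the strongest element.

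**Figure D4:**
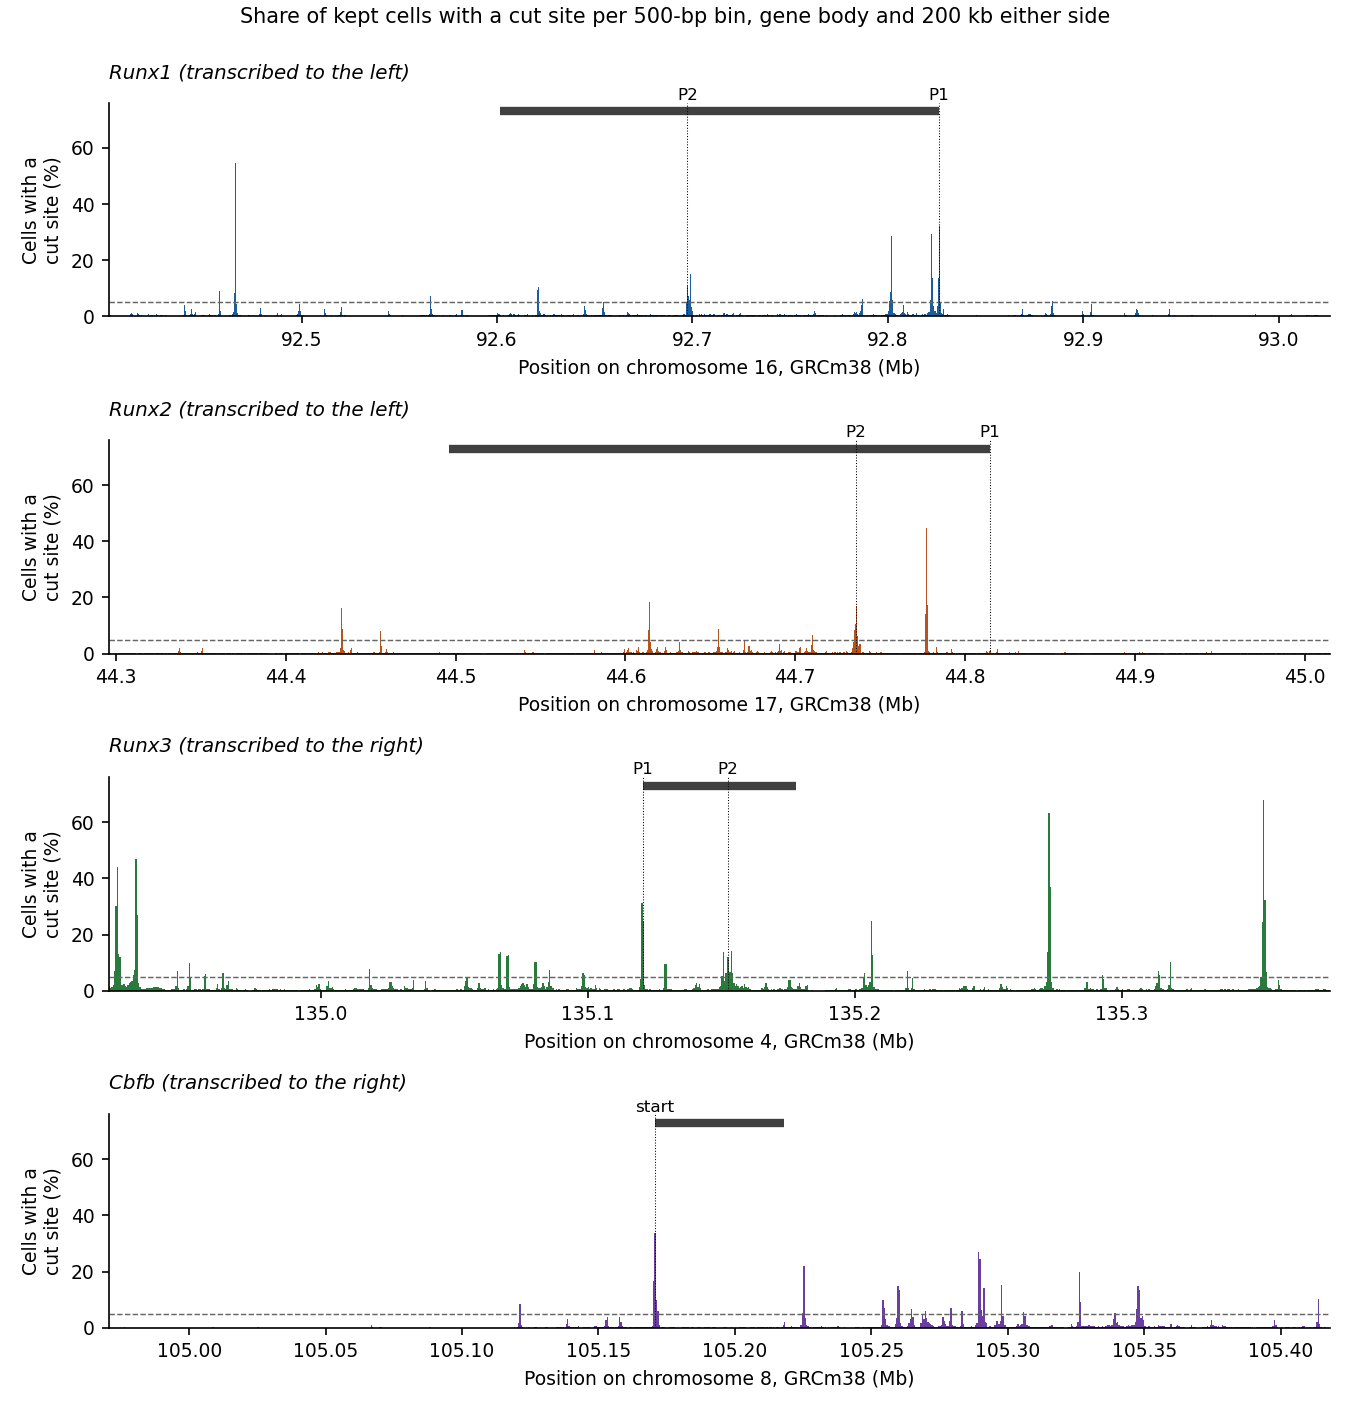
Share of cells (y axis, %) with a cut site in each 500-bp bin along the 4 loci, by position in Mb (x axis, GRCm38). Black bars are gene bodies, dotted lines the P1 and P2 starts or the Cbfb start, and the dashed line is 5%: open bins gather inside the gene at Runx1 and Runx2, on both sides of it at Runx3 and downstream of it at Cbfb. Those inside Runx2 include the promoter element of Supt3.

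Fragments were spread in the same way. Of 21462 fragments in the Runx1 window 55.5% touched the gene body with a cut site, and of 13939 at Runx2 75.6% did, against 11.9% of 38352 at Runx3 and 8.55% of 16883 at Cbfb. The Runx2 body holds the promoter element of Supt3, which had 2355 fragments, beside 10541 in the whole body. Open bins of that element also count in the open share of the Runx2 body given below. Gene bodies of Runx1 (225 kb) and Runx2 (319 kb) also fill more of their windows than those of Runx3 (57.3 kb) and Cbfb (47.3 kb). Inside the gene body the open share of bins was 3.99% at Runx1, 1.88% at Runx2, 9.57% at Runx3 and 3.16% at Cbfb. Bins that were not open had a cut site in 0.256% of cells on average at Runx2 and in 0.675% at Runx3. The strongest bin of Runx2 P1 had 2.99%, but a strongest bin is not comparable with a mean. Other closed bins of its window were higher, with 4.05% and 3.47% near the P2 element.

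Elements of a locus were cut together about as often as their single shares predict at a given depth. Within 10 depth classes, 167 cells had a cut site at both Runx1 P1 and P2, and the shares gave 171 (ratio 0.975, 0.833 to 1.14). The ratio was 1.09 (0.957 to 1.23) for Runx3 P1 and P2 and 1.22 (0.814 to 1.77) for those of Runx2, from 28 cells. Runx1 P1 with its intronic elements gave 1.02 (0.914 to 1.13) at 3.90 kb and 1.02 (0.917 to 1.14) at 24.4 kb. Of the 38 pairs of a promoter with P2 or with 1 of the 5 strongest distal elements of its locus, the ratio ranged from 0.710 to 1.33 with a median of 1.04, and the interval included 1 in each. A departure smaller than these intervals was not detectable at this depth.

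The letters of RUNX and other factors were counted in the strongest bin of each element, on both strands, beside all 46098 open bins of the genome. RUNX letters were in 22 of the 57 elements (38.6%) and in 16 of the 34 outside promoters (47.1%), against 26.7% of open bins. For GATA the counts were 16 (28.1%) and 11 (32.4%), against 23.0%, and for ETS 37 (64.9%) and 21 (61.8%), against 50.8%. E-box letters (CAGNTG) were in 44 elements (77.2%) and in 29 outside promoters (85.3%), against 68.7%. CTCF letters (AGGNGGC) were in 29 (50.9%) and 18 (52.9%), against 49.9%, and AP-1 letters (TGANTCA) in 7 (12.3%) and 6 (17.6%), against 10.7%. KLF/SP letters (GGGCGG), which are frequent in CpG-rich promoters, were in 26 elements (45.6%) and in 8 outside promoters (23.5%), against 49.2%, with 13 of 16 at Cbfb, 9 of 23 at Runx3, 3 of 7 at Runx2 and 1 of 11 at Runx1. The open bins of the genome include promoters, and the elements are few and were not matched to them in base composition, so these counts are a description.

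Partners of RUNX proteins were read on the same promoter scale. Of 29 cofactors and partner factors 25 had an open promoter, beside 53.6% of all genes, with a median of 34.4% of cells, close to the shares of Runx1 P1 and Cbfb and above the median of all genes. Tle4, a Groucho corepressor, was cut in 79.5% of cells, Prmt1, which methylates RUNX1, in 77.1%, and Lyl1, an E-box factor of stem cells, in 72.7%. The lowest were Erg (0.0322%) and Gata1 (0.161%), and Lmo2 (1.09%). Erg, Gata1 and Lmo2 have several annotated starts of which 1 was counted, so a low value holds for that start and not for the gene.

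Of 19 known targets of RUNX factors in differentiated blood cells 9 had an open promoter, near the 53.6% of all genes, with a median of 3.70%. Nfe2, a factor of platelet formation, had 51.1%, Cebpa, a myeloid factor, 29.3% and Zbtb7b, a factor of helper T cells, 25.5%. The lowest were Cd8a (0.193%), Il3 (0.225%) and Cd4 (0.483%), which encode T cell surface proteins and a T cell cytokine. Of 8 RUNX2 target genes of bone 2 had an open promoter, with a median of 1.17%: Alpl (10.2%) and Spp1 (8.98%), followed by Sp7 at 4.18%. Col10a1 (0.0644%) and Ibsp (0.0322%) were near the bottom, and Mmp13 had 0 of 3108 cells, for which a limit of 3 counts is a share of 0.0965% and the upper bound of the binomial interval 0.119%.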

How the data were processed

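With Cell Ranger ARC 2.0.2 and the mm10 reference (GRCm38), the authors made and deposited counts of fragments, RNA UMIs and read pairs per barcode or fragment. Duplicates were already collapsed, and no source used here says whether fragment ends were moved for the transposase offset. RNA counts per gene and antibody tags were not used here. Tables were read with pandas 2.3.3 and pyarrow 21.0.0, intervals came from scipy 1.17.1 and counts from numpy 2.4.6 under Python 3.11.15, and figures were drawn with matplotlib 3.10.9. Starts came from GENCODE vM21. No fragment or gene ended beyond its GRCm38 chromosome (21 compared).

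Cells were kept with over 3000 fragments in peaks; doublets were kept, and 649 called cells fell out. P1 was the coding start group farthest upstream. P2 was the downstream group with most transcripts whose first exon ends where an internal exon of P1 transcripts does, or in a tie the one farthest upstream. An element counted as a promoter within 500 bp of a coding start, and its share is that of its strongest bin. Percentiles are shares of all genes with a lower value. Named were the 4 genes, the 5 strongest elements of each locus, up to 3 neighbors by promoter share, and the 3 highest and 3 lowest of each list; other elements and genes were named after their values were seen. The genes and lists were chosen with earlier results of these data known. The result of 1 marker list is not reported here. Steps were tested on simulated data. Alternatives changed the cells, depth, fragments, threshold, joining, bins and windows.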

Additional observations from a re-analysis of the deposited data

Results flagged for a closer look

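Barcodes that were not called cells, which enter no share above, also had fragments at the open promoters. The strongest bin of the Runx1 P1 element held 45 of them, that of Runx3 P1 64 and that of Cbfb 78, each above the 3 that a count of 0 allows. That limit is not an expected count for such a bin, so passing it shows only that the counts were not near 0. Per 1000000 fragments of such barcodes on chromosomes 1 to 19 and X this was 12.8, 18.2 and 22.1, against 34.3, 35.5 and 39.7 in kept cells.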

How the results depend on the processing

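No paired analysis was possible because each kind of data came from 1 library, which leaves no replicate samples to pair. The P1 to P2 ratio kept its side of 1 at Runx1 and Runx2 in all 11 alternatives of each, and at Runx3 in 10 of 11. Windows of 250 bp either side gave 2.88 at Runx1, 0.316 at Runx2 and 2.70 at Runx3, and 1000 bp gave 2.05, 0.133 and 1.60. Fragments under 150 bp gave 2.80 at Runx1 and 3.47 at Runx3, thinning to 5000 fragments 2.67 at Runx1 (95 cells left out), and fragments in place of cells 2.41 at Runx3. The cause of these shifts was not tested. Whole open elements, chosen after seeing the data, gave 1.25 at Runx1 and 0.871 at Runx3; P2 elements are wider, so the windows compared differ in length. Another Runx2 P2 start, also chosen after seeing the data, gave a P1 to P2 ratio of 0.196, within the interval of 0.157 to 0.239.

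Open elements changed by no more than 1.5 times in 26 of 40 comparisons. With 2.5% of cells there were 23 at Runx1, 13 at Runx2 and 40 at Runx3, and with 10% 7, 4 and 13, and 9 at Cbfb, against 11, 7, 23 and 16. Thinned cells gave 5, 4 and 11, and 8 at Cbfb, and short fragments 7 at Runx1, 13 at Runx3 and 10 at Cbfb. Thinning also left out 95 cells, and the cause of these changes was not tested. In these settings Runx3 had the most elements and Runx2 the fewest.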
